A study of Mus musculus with 34 samples.

Results

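The mouse genes that place, copy or remove 5-methylcytosine in DNA were followed through every library of a study on the long non-coding RNA Evx1as: Dnmt3a, Dnmt3b, Dnmt3l, Dnmt1, Uhrf1, Tet1, Tet2 and Tet3. They were taken by gene symbol. All 8 were found, once each, among the 37145 genes of the culture tables and the 46785 genes of the embryo tables. Of 34 samples, 30 had a table and were used. The 6 cultures were embryonic stem cells of strain 129S1/SVImJ, 4 days after withdrawal of LIF, a cytokine that keeps such cells from differentiating. They were 3 wild-type CJ9 cultures and 3 of a line labelled 4x polyA KI, named by its insert. The labels do not say how many clones that line represents. The other 24 libraries came from C57/B6 embryos at embryonic day 7, cut into cryosections and captured by laser, then amplified by Geo-seq, a method for small captured regions. The embryos were labelled Evx1as+/- (heterozygous, the control) or Evx1as-/- (homozygous), so both genotypes carried the altered allele, and no wild-type embryo was analysed here. Sections of the primitive streak, the band of epiblast through which cells leave to form mesoderm, numbered 6 in heterozygous embryos (layers 1, 3, 5, 7, 9 and 11) and 5 in homozygous ones (layers 1, 5, 7, 9 and 11). Mesoderm sections numbered 3 (layers 7, 9 and 11) and 5 (layers 3, 5, 7, 9 and 11). The labels do not give the direction in which layers are numbered. Each genotype had 1 anterior epiblast section. A further 3 sections carried labels that name different regions and entered no comparison.

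DNA methylation is written at CpG dinucleotides by the catalytic enzymes DNMT3A and DNMT3B, which act on unmodified DNA, helped by DNMT3L, a relative without catalytic activity that stimulates them. It is copied to the new strand at replication by DNMT1, which UHRF1 recruits to hemimethylated sites. TET1, TET2 and TET3 oxidise 5-methylcytosine as the first step of its removal. In the mouse embryo methylation is rebuilt in the epiblast around implantation, a stage at which DNMT3B is the main new writer, and stem cells that leave the naive state pass through a similar gain.

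In the embryo tables, whose positions follow mm10, the new writers lay on chromosomes 12 (Dnmt3a, chr12:3807030-3914443), 2 (Dnmt3b, chr2:153649450-153687730) and 10 (Dnmt3l, chr10:78042287-78063622). The maintenance pair were Dnmt1 at chr9:20907206-20959888 and Uhrf1 at chr17:56303321-56323486. The erasers were Tet1 at chr10:62804570-62899118, Tet2 at chr3:133463679-133544390 and Tet3 at chr6:83362373-83456392. Dnmt1 and the Tet genes lay on the minus strand and the others on the plus strand, and GENCODE annotates all 8 as protein coding. The new writers and Dnmt3l rose together in the knock-in cultures. The 250 bases before a RefSeq start site of each are therefore shown (build GRCm38.p6, all 3 on the plus strand, 5′ to 3′), with each CpG in capitals. They span chr12:3806730-3806979, chr2:153649199-153649448 and chr10:78042037-78042286.
Dnmt3a: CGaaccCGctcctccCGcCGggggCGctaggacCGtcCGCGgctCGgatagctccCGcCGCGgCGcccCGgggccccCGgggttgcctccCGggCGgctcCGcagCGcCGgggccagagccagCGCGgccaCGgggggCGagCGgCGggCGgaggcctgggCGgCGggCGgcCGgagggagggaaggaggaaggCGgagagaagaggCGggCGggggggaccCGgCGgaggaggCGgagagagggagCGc
Dnmt3b: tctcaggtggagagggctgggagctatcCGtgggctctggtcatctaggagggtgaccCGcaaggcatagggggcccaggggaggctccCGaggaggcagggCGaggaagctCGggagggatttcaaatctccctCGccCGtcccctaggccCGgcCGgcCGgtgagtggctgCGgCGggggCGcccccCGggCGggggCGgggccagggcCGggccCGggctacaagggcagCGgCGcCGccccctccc
Dnmt3l: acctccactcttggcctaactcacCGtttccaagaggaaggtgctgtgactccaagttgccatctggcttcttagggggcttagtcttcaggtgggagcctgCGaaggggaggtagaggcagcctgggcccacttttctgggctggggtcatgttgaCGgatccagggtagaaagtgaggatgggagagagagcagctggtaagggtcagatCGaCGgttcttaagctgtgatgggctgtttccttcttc
The windows shown differed widely in CpG content. Expression was given by gene, so the start sites used in the cultures are not known. Dnmt3a had 38 CpGs, a number reached by 1.88% of the 32851 windows of this length in the table, and Dnmt3b had 21, reached by 16.3%. Dnmt3l had 5, below the median of 6. Among the other members the counts were 51 for Tet2, 17 for Tet3, 15 for Tet1, 10 for Uhrf1 and 2 for Dnmt1. The windows listed for Tet1 and Tet3 started 11794 and 14714 bases from the gene starts of the embryo tables, so they may serve other transcripts. The number of windows listed was 3 each for Dnmt1, Dnmt3a and Dnmt3l, and 2 for Uhrf1. For each gene the window nearest the gene start of the embryo tables was taken. The other windows, which may differ in CpG count, were not examined. On either strand, the SP1 letters GGGCGG occurred 5 times before Dnmt3a, 3 times before Dnmt3b and 0 times before Dnmt3l, and 32.7% of windows held them. The E2F letters TTTCCCGC or TTTGGCGC occurred in none of the 8 windows, against 1.30% of all windows. Matches of letters are descriptions of the windows only.

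The values are FPKM (fragments scaled to transcript length and to the mapped fragments of the library). On that scale levels of different genes are set beside each other within a library. Any effect of amplification that differs between genes was not measured. Sequencing depth was not given and no counts could be recovered, so no counting interval is stated. FPKM summed to 502990 to 527295 per wild-type culture, 559513 to 582184 per knock-in culture and 132929 to 376860 per section. In a section 6806 to 10959 genes reached 1 FPKM. The non-coding RNA Yam1 took 1.07% to 38.3% of FPKM in the sections. Evx1as (listed as 5730457N03Rik) read 3.94 to 5.99 FPKM in the wild-type cultures and 0.0674 to 0.137 in the knock-in cultures. In the streak and mesoderm sections it was listed at 0 in 2 of 9 heterozygous and 8 of 10 homozygous libraries, with highest values of 4.57 and 0.159. Streak marker genes summed to 246 to 481 FPKM in the 11 streak sections and to 14.4 to 88.0 in the 8 mesoderm sections. Of the 3 sections with conflicting labels, the one titled as homozygous streak layer 3 summed to 375, and those titled as heterozygous mesoderm layers 3 and 7 summed to 27.4 and 16.2. Visceral endoderm markers summed to 729 in homozygous streak layer 11 and to 481 in homozygous mesoderm layer 9, against at most 76.9 elsewhere. In bulk sections, fewer cells of a type and less RNA per cell cannot be told apart.

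The first comparison asked how the knock-in cultures differed from wild type after 4 days without LIF. Both catalytic writers, their helper Dnmt3l and the erasers Tet1 and Tet2 were higher in the knock-in cultures, Tet3 was lower, and the maintenance pair Dnmt1 and Uhrf1 did not pass the test. That is 5 members higher and 1 lower of 8, by limma on log2(FPKM + 1) with Benjamini-Hochberg (BH) adjustment over all genes and a threshold of 0.05. Of all 13133 genes tested, 32.4% passed, 16.2% higher and 16.2% lower. The groups did not overlap for 6 of the 8 members, as for 48.4% of all genes tested.

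**Figure D1:**
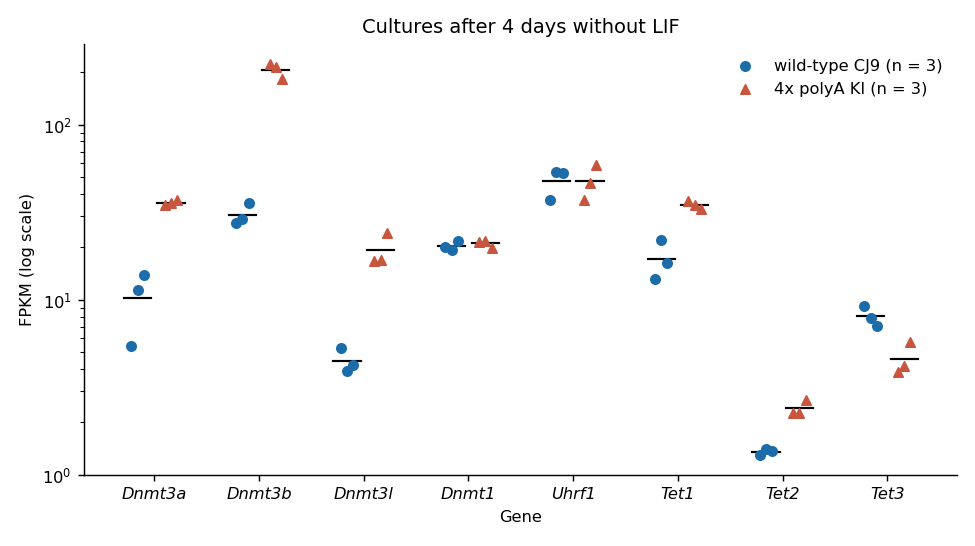
FPKM of the 8 genes in each culture on a log axis, with circles for 3 wild-type and triangles for 3 knock-in cultures and a bar at each group's mean. The 3 knock-in cultures lie above the wild-type cultures for Dnmt3a, Dnmt3b, Dnmt3l, Tet1 and Tet2, below them for Tet3, and among them for Dnmt1 and Uhrf1.

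Dnmt3b, the main new writer of the epiblast, read 27.2, 29.02 and 35.6 FPKM in the wild-type cultures and 223, 212 and 182 FPKM in the knock-in cultures. The lowest knock-in value was thus several times the highest wild-type value. The means were 30.6 ± 4.4 and 206 ± 21.0 FPKM (SD, n = 3 each), a ratio of 6.73 and a log2 change of 2.72 (SE 0.14, limma adjusted p = 7.57e-05). By log2 change it ranked 29 of 13133 genes. Dnmt3a, the other catalytic writer, read 5.43, 11.3 and 13.7 FPKM in wild type and 34.7, 35.7 and 36.9 FPKM in the knock-in line. The wild-type cultures were spread, the knock-in cultures close together, and the groups were apart. The log2 change of Dnmt3a was 1.80 (SE 0.28, limma adjusted p = 0.00314), and 1.45 without wild-type culture 1, the lowest. Dnmt3b made up 71.9% to 83.4% of the summed FPKM of the 2 writers in wild type and 83.2% to 86.5% in the knock-in cultures, ranges that overlap slightly.

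Dnmt3l, which has no catalytic activity of its own, read 5.28, 3.91 and 4.23 FPKM in wild type and 16.5, 16.7 and 24.0 FPKM in the knock-in cultures. All 3 knock-in cultures were above all wild-type cultures, with a ratio of means of 4.27 and a log2 change of 1.86 (SE 0.19, limma adjusted p = 0.000612).

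The maintenance enzyme Dnmt1 read 19.9, 19.2 and 21.6 FPKM in wild type and 21.4, 21.7 and 19.7 FPKM in the knock-in cultures, and the groups overlapped. Its log2 change was 0.05 with a 95% interval of -0.23 to 0.32 (limma adjusted p = 0.791), and its sign turned to -0.09 when FPKM were rescaled without Yam1 and mitochondrial genes. Uhrf1, the factor that brings DNMT1 to hemimethylated DNA, read 37.0, 53.4 and 52.7 FPKM against 37.3, 46.4 and 58.5 FPKM. Its groups covered nearly the same range. The log2 change of Uhrf1 was -0.01 with an interval of -0.49 to 0.46 (limma adjusted p = 0.964). For both genes the interval leaves out a change as large as that of Dnmt3a, Dnmt3b or Dnmt3l, but it does not show that the levels were equal.

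Tet1, the eraser most abundant in pluripotent cells, read 13.2, 21.9 and 16.2 FPKM in wild type and 36.5, 34.7 and 32.7 FPKM in the knock-in cultures. The groups were apart, the ratio of means was 2.02 and the log2 change 1.00 (SE 0.18, limma adjusted p = 0.00578). File names carry a token that may mark the sequencing lane, which the labels do not state. Among the cultures with token L3, the only one shared by both groups (1 wild-type and 2 knock-in cultures), the log2 change of Tet1 was 0.60, with no test. Tet2 was low in all 6 cultures, at 1.29, 1.39 and 1.36 FPKM against 2.25, 2.24 and 2.67 FPKM. The groups did not overlap, and its log2 change of 0.53 (SE 0.17) passed narrowly, with a limma adjusted p of 0.0486. Tet2 missed the threshold under 11 of its 12 alternative settings with a test, with adjusted p up to 0.129. Tet3, the eraser known from the oocyte and from differentiated cells, ran the other way, with 9.16, 7.85 and 7.05 FPKM in wild type and 3.86, 4.15 and 5.69 FPKM in the knock-in cultures. Every knock-in culture was below every wild-type culture, and the log2 change was -0.70 (SE 0.18, limma adjusted p = 0.0211). The call of Tet3 was lost under 6 of 13 alternatives with a test: no filter on low values, the replicate block, and each of wild-type cultures 1 and 2 and knock-in cultures 1 and 2 left out, with adjusted p up to 0.0786.

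The make-up of the Tet signal differed accordingly. Tet1 was 55.7% to 70.3% of the summed Tet FPKM in wild type and 79.7% to 85.7% in the knock-in cultures, while Tet3 was 25.2% to 38.8% and 9.06% to 13.8%. Neither share overlapped between the groups. The sum itself was 23.6 to 31.2 FPKM in wild type and 41.1 to 42.6 FPKM in the knock-in cultures. The order of the levels also differed: Uhrf1 was the highest of the 8 in all 3 wild-type cultures and Dnmt3b in all 3 knock-in cultures. In wild type the ranges of Dnmt1 and Tet1, of Tet1 and Dnmt3a, and of Dnmt3a and Tet3 overlapped, so the order of those neighbours was not resolved. In the knock-in cultures Dnmt3a overlapped Tet1, and Dnmt1 overlapped Dnmt3l.

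Among genes that work with the members, the partners of DNMT1 had 3 of 8 tested genes higher and none lower in the knock-in cultures. Cdca7, part of a chromatin remodeller needed for maintenance, rose from 18.7 ± 1.5 to 42.5 ± 8.1 FPKM (log2 change 1.13, limma adjusted p = 0.00194), and Cdca7l rose from 4.62 ± 0.25 to 8.06 ± 0.95 FPKM (log2 change 0.68). The median log2 change of this list was 0.33, against 0.02 for all genes. Of 9 genes in a list of readers of methylated DNA and their relatives, not all of which bind methylated DNA, 2 were higher and 3 lower. Mbd3 rose from 73.1 to 99.9 FPKM (log2 change 0.45), whereas Zbtb38 fell from 13.0 to 3.19 FPKM (log2 change -1.75) and Mbd2 from 20.9 to 9.31 FPKM (log2 change -1.07).

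Of 13 tested genes of base excision repair and DNA demethylation, 2 were higher and 3 lower, and the 3 lower ones were the stress-response genes Gadd45a, Gadd45b and Gadd45g (Gadd45b named after its value was seen). The largest of these changes was in Gadd45g, from 12.8 ± 4.1 to 3.67 ± 1.4 FPKM (log2 change -1.56, limma adjusted p = 0.00781). In the methyl donor and folate cycle 3 of 11 were higher and none lower, led by Shmt1 at 13.7 against 22.7 FPKM. Among suppliers of 2-oxoglutarate and TET partners only Idh1 of 10 passed, falling from 11.9 ± 3.4 to 5.45 ± 1.2 FPKM. Of 12 tested factors that steer or oppose methylation, 3 were higher, led by Kdm2b (31.6 against 57.3 FPKM). Of 18 germline genes that methylation keeps silent in the embryo, only 4 averaged 1 FPKM or more, 1 of which was higher and none lower, and the summed FPKM of the list was 14.7 to 20.0 in wild type and 16.8 to 19.9 in the knock-in cultures, ranges that overlap. Replication genes were mixed, with 3 higher and 2 lower of 14. Their sums of 552 to 609 FPKM in wild type and 617 to 690 FPKM in the knock-in cultures did not overlap. The FPKM totals of all genes did not overlap either, at 502990 to 527295 and 559513 to 582184.

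Cell state markers also differed between the same cultures, and the lists went different ways. All 10 epiblast markers, a list that includes general pluripotency genes, were higher in the knock-in cultures, with sums of 614 to 842 and 1689 to 1920 FPKM. In the same cultures 5 of 7 tested streak markers and 5 of 7 mesoderm markers were lower and none higher, with sums of 322 to 473 against 91.6 to 112 FPKM and of 267 to 343 against 63.9 to 81.2 FPKM. Trophoblast markers, a list that includes the keratins Krt8 and Krt18, had 6 of 7 lower, with sums of 643 to 1207 against 197 to 244 FPKM. Both visceral endoderm markers tested were lower, while Afp, Apoa4 and Ttr were at 0 in both groups. Naive markers were split, 4 higher and 2 lower of 8, with sums of 338 to 347 against 142 to 167 FPKM. The 2 lower ones were Klf5, from 235 to 64.0 FPKM, and Tbx3, from 36.6 to 2.00 FPKM. Among the 4 higher ones were Klf2, from 9.83 to 24.5 FPKM, and Fgf4, from 2.04 to 12.4 FPKM. Of 5 germ cell markers 1 was higher and 3 lower. Of 3 tested fibroblast feeder markers, Thy1 rose from 3.38 to 18.1 FPKM and Col1a1 fell from 6.81 to 1.65 FPKM, and the sums of 9.92 to 18.2 and 20.3 to 21.2 FPKM did not overlap. The part of these differences in the changes of the 8 genes was not tested.

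In the embryo, Dnmt3b was the highest of the 8 genes in 21 of 24 sections and Uhrf1 in the other 3, which were heterozygous streak layer 1 and heterozygous mesoderm layers 9 and 11. Over the 24 sections Dnmt3b ranged from 7.28 to 148 FPKM (median 41.7) and Uhrf1 from 11.3 to 31.3 FPKM (median 14.1). Dnmt3a ranged from 0.998 to 16.1 FPKM (median 3.95) and Dnmt1 from 0.949 to 5.61 FPKM (median 2.45), and those ranges overlap over most of their length. Tet1 had a median of 1.27 FPKM, Tet3 of 0.585 and Tet2 of 0.106. Dnmt3l was listed at 0 in 20 sections and Tet2 in 5. Embryo and culture tables were made with different annotations and amplification, so their levels are not compared.

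The anterior epiblast, the part of the epiblast that has not entered the streak, had the highest Dnmt3b of all sections, at 125.53 FPKM in the heterozygous and 148 FPKM in the homozygous library. The highest streak section read 109 FPKM. The homozygous anterior section also had the highest Dnmt3a, 16.1 FPKM, and the highest Dnmt3l, 0.793 FPKM, whereas the heterozygous one read 4.49 FPKM and 0. Dnmt1 (2.39 and 2.59 FPKM), Uhrf1 (15.0 and 16.5 FPKM) and Tet1 (2.04 and 2.26 FPKM) in these sections lay within the range of the streak sections. With 1 library per genotype these values have no replicate and no test. Streak markers summed to 5.89 and 3.33 FPKM there and epiblast markers to 147 and 315 FPKM, so streak content was low there.

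**Figure D2:**
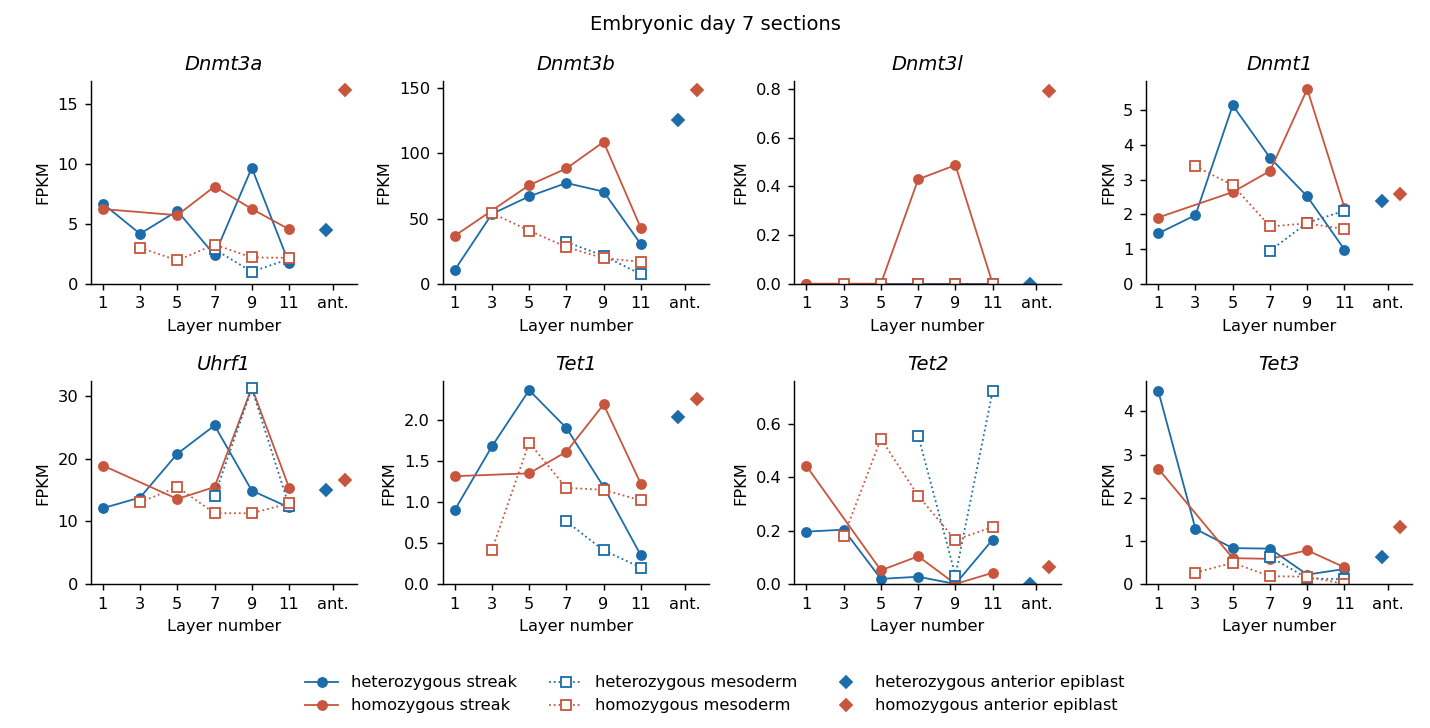
FPKM of each gene by layer number in the embryonic day 7 sections, with filled circles for streak, open squares for mesoderm and diamonds for the single anterior epiblast sections (ant.), blue for heterozygous and red for homozygous embryos. Within each genotype Dnmt3b is lower in mesoderm than in streak at every shared layer, and it is highest in the anterior sections, and Tet3 stands highest at streak layer 1, at 4.47 and 2.67 FPKM.

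The second comparison set mesoderm beside streak within the 7 combinations of genotype and layer that had both. Dnmt3b was lower in mesoderm in all 7 pairs and was the only one of 5 tested members to pass, against 8.62% of all 9146 genes tested, 8.04% lower. In heterozygous embryos it read 77.2, 70.6 and 30.3 FPKM in streak layers 7, 9 and 11 and 32.0, 21.4 and 7.28 FPKM in the mesoderm of the same layers. In homozygous embryos it read 75.6, 88.4, 109 and 42.7 FPKM in streak layers 5, 7, 9 and 11 and 40.7, 28.1, 19.5 and 16.9 FPKM in mesoderm. Mesoderm thus held 17.9% to 53.9% of the streak level of its own layer (median 31.8%), although the lowest streak section lay below the highest mesoderm sections. The means were 70.5 ± 26.6 and 23.7 ± 10.9 FPKM (SD, n = 7 pairs), a log2 change of -1.58 (SE 0.21, limma with pair as a block, adjusted p = 0.00302). Several sections may be cut from 1 embryo, which makes this p, like every p over sections, too small. All genes tested had a median log2 change of -0.34 here. After each library was scaled by the median ratio of its genes, 63 genes passed in place of 788, and Dnmt3b was among them with a log2 change of -1.14 (adjusted p = 0.0152). Without the homozygous pairs of layers 9 and 11, which held the sections high in visceral endoderm markers, its change was -1.47 (adjusted p = 0.0294). With heterozygous pairs only it was -1.61 and did not pass (adjusted p = 0.124), and with homozygous pairs only it was -1.55 (adjusted p = 0.0478).

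Dnmt3a was lower in mesoderm in 5 of 7 pairs, with means of 5.47 ± 2.9 and 2.21 ± 0.72 FPKM. Its log2 change of -0.90 did not pass (SE 0.31, limma adjusted p = 0.0860, too small for the reason given). Over all 19 sections without pairing it was -0.92 and passed (adjusted p = 0.0165), whereas after median-ratio scaling it was -0.52 (adjusted p = 0.478) and after rescaling without Yam1 and mitochondrial genes -0.77 (adjusted p = 0.527). Its mesoderm values all lay between 0.998 and 3.26 FPKM, and its streak values between 1.70 and 9.65 FPKM. Dnmt3l was listed at 0 in all 8 mesoderm sections.

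For the maintenance pair the regions overlapped. Dnmt1 went from 2.98 ± 1.4 FPKM in streak to 1.80 ± 0.57 FPKM in mesoderm and was lower in 5 of 7 pairs, with a log2 change of -0.45 (95% interval -1.05 to 0.16, limma adjusted p = 0.316 over sections that may share an embryo). Uhrf1 went from 18.3 ± 7.1 to 15.5 ± 7.1 FPKM and was lower in 4 of 7 pairs, with a log2 change of -0.23 (95% interval -0.82 to 0.35) whose sign turned to 0.19 after median-ratio scaling. Tet1 went from 1.41 ± 0.59 to 0.922 ± 0.51 FPKM and was lower in 6 of 7 pairs, but its log2 change of -0.33 (95% interval -0.88 to 0.23) did not pass (limma adjusted p = 0.429, likewise too small).

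Tet2 and Tet3 had means under 1 FPKM in these pairs and were tested only by exact paired permutation, two-sided, as were all 8 genes. Tet2 was higher in mesoderm in 7 of 7 pairs. It read 0.0271, 0 and 0.166 FPKM in heterozygous streak layers 7, 9 and 11 against 0.555, 0.0316 and 0.722 FPKM in mesoderm, and 0 to 0.104 against 0.165 to 0.543 FPKM in homozygous embryos. Tet3 was lower in 7 of 7 pairs, with ranges of 0.217 to 0.819 FPKM in streak and 0 to 0.633 FPKM in mesoderm. For Tet2, Tet3 and Dnmt3b the exact permutation p was 0.0156, the smallest that 7 pairs allow, before any correction for the 8 genes and too small where sections share an embryo. The mean log2 difference of Tet3 was -0.31, beside a median of -0.34 over all genes tested by limma, so Tet3 did not stand out from the general shift. That of Tet2 was 0.35. The share of all genes with the same direction in all 7 pairs was not counted. Tet2 was 5.49% to 70.0% of the summed Tet FPKM in heterozygous mesoderm and 11.1% to 20.8% in homozygous mesoderm, whereas in the streak sections its share was 0% to 19.2%. Values this low were not resolved in every library. In heterozygous mesoderm layer 9 the authors' deposited interval of Tet2 ran from 0 to 0.142 FPKM, so the direction of that pair is not resolved, and it also began at 0 in streak sections of heterozygous layer 7 and homozygous layers 5 and 11. For Tet3 in heterozygous layer 11 the deposited intervals overlapped, at 0 to 0.244 FPKM in mesoderm and 0.144 to 0.552 FPKM in streak.

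**Figure D3:**
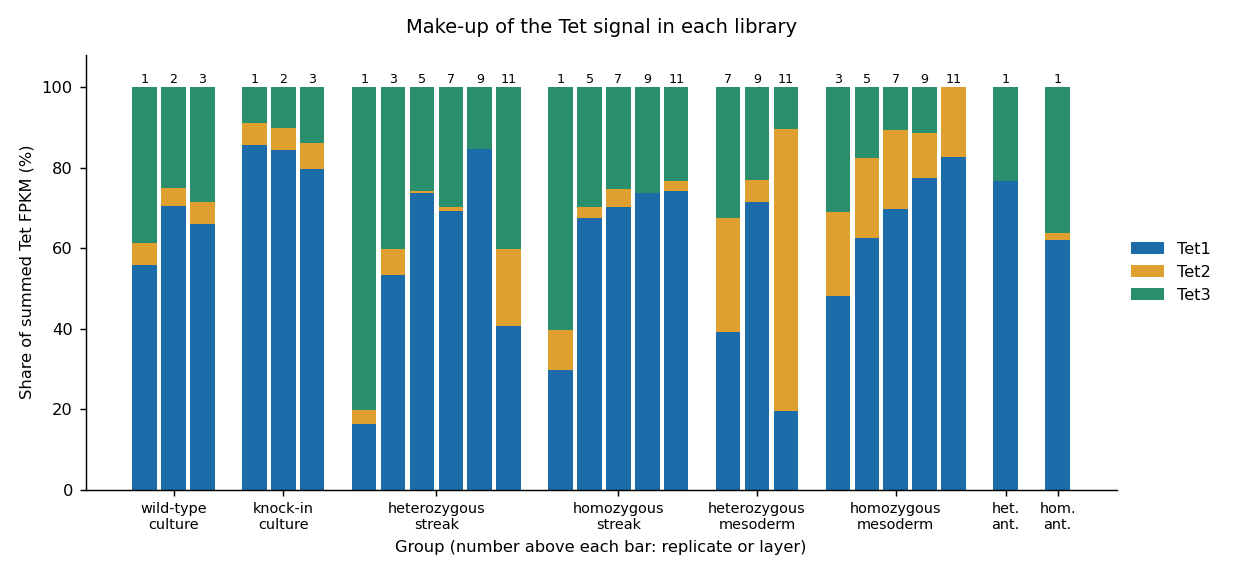
Share of Tet1, Tet2 and Tet3 in their summed FPKM, in percent, 1 stacked bar per library, with replicate or layer above each bar (het. ant. and hom. ant. are the single anterior epiblast sections). Tet1 holds the largest share in all 6 cultures, Tet3 holds 80.3% and 60.3% at streak layer 1, and Tet2 holds more in mesoderm than in streak at every shared layer of a genotype.

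Members of the wider pathway differed between the regions as follows. Of 8 partners of DNMT1 only Cdca7 passed, at 29.1 ± 13.5 FPKM in streak and 12.5 ± 4.1 FPKM in mesoderm (log2 change -1.03, limma adjusted p = 0.0417, too small over sections). Of 7 repair genes only Apex1 passed, lower in mesoderm (132 against 73.3 FPKM), and of 14 replication genes 2 were lower, Rrm2 and Cdc6 (the latter named after its value was seen). No gene of the reader, methyl donor, TET cofactor or steering lists passed. The sum of epiblast markers was 56.8 to 439 FPKM in the paired streak sections and 32.2 to 222 FPKM in mesoderm, and their median log2 change of -0.16 was less negative than that of all genes, -0.34. Of 7 tested epiblast markers only Pou5f1, a pluripotency factor, passed, falling from 104 ± 60.0 to 28.97 ± 14.5 FPKM. The part of epiblast content in the difference of Dnmt3b was not tested.

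Along the layers, Dnmt3b in streak was low at layer 1, highest at layers 7 to 9 and low again at layer 11. The heterozygous values were 10.4, 53.5, 67.0, 77.2, 70.6 and 30.3 FPKM at layers 1, 3, 5, 7, 9 and 11, and the homozygous values 36.6, 75.6, 88.4, 109 and 42.7 FPKM at layers 1, 5, 7, 9 and 11. In mesoderm Dnmt3b declined from each layer to the next higher one, from 54.2 to 16.9 FPKM over layers 3 to 11 in homozygous embryos and from 32.0 to 7.28 FPKM over layers 7 to 11 in heterozygous embryos. A straight slope over all 19 sections passed for 0 of the 5 members tested by limma and 0 at an unadjusted p under 0.05, against 1.05% of all genes. Within mesoderm the slope of Dnmt3b was -0.26 per layer on the log2 scale (SE 0.07), with an unadjusted p of 0.00319 in limma and an adjusted p of 0.717, too small as sections may share an embryo. In that fit 0.0115% of genes passed.

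Tet3 had its highest values at streak layer 1, 4.47 FPKM in the heterozygous and 2.67 FPKM in the homozygous section, and at most 1.27 FPKM in the other 9 streak sections. Its slope within streak was -0.16 per layer on the log2 scale (SE 0.05, limma adjusted p = 0.159, too small as sections may share an embryo), in a fit that passed 0.0805% of genes. The same 2 sections had the highest sums of trophoblast markers among the 11 streak sections, 148 and 102 FPKM against 5.53 to 39.6 FPKM. Of that list, Ascl2 and Elf5 were at 0 in every streak section of both genotypes. Whether trophoblast cells were present, and their part in Tet3, was not tested. Tet3 also followed the number of genes at 1 FPKM or more per library, with r = 0.79 over 9 heterozygous and 0.76 over 10 homozygous sections, given as a description. The other values of that relation ran from -0.41 for Tet2 in heterozygous sections to 0.78 for Dnmt3a in the same sections, and Dnmt3b had 0.20 and 0.15.

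The third comparison asked whether loss of both Evx1as copies changed the members in the embryo. No member passed between homozygous and heterozygous sections, in streak (0 of 6 tested, against 0.0201% of all genes), in mesoderm (0 of 4, against 0.196%) or over both regions (0 of 5, against 1.25%). By limma 0 members had an unadjusted p under 0.05 in any of the 3 fits, and a constant prior also gave 0. Dnmt3b in streak was higher in the homozygous section at all 5 shared layers, by 36.6 against 10.4 FPKM at layer 1, 75.6 against 67.0 at layer 5, 88.4 against 77.2 at layer 7, 109 against 70.6 at layer 9 and 42.7 against 30.3 at layer 11. The groups overlapped, and the layer-adjusted log2 change of 0.52 (95% interval -0.46 to 1.50) did not pass (limma adjusted p = 0.674, too small over sections that may share an embryo). In mesoderm 1 of 3 shared layers was higher, with a log2 change of 0.19 (95% interval -0.63 to 1.02) whose sign turned to -0.16 after median-ratio scaling. Over both regions it was 0.63 (95% interval -0.14 to 1.40, limma adjusted p = 0.344, likewise too small). All genes tested had median log2 changes of 0.25 in streak, 0.31 in mesoderm and 0.24 over both. Without the sections high in visceral endoderm markers, the log2 change of Dnmt3b was 0.80 in streak, 0.21 in mesoderm and 0.81 over both, again not past the threshold (limma adjusted p = 0.788, 0.917 and 0.382, too small as before). Single libraries moved these values either way. In streak the change of Dnmt3b was 0.19 without heterozygous layer 1 and 0.23 without heterozygous layer 11, and over both regions it was 0.32 without heterozygous streak layer 1. In mesoderm it was -0.072 without heterozygous layer 11, -0.038 without homozygous layer 11, 0.34 without heterozygous layer 9 and 0.43 without heterozygous layer 7.

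**Figure D4:**
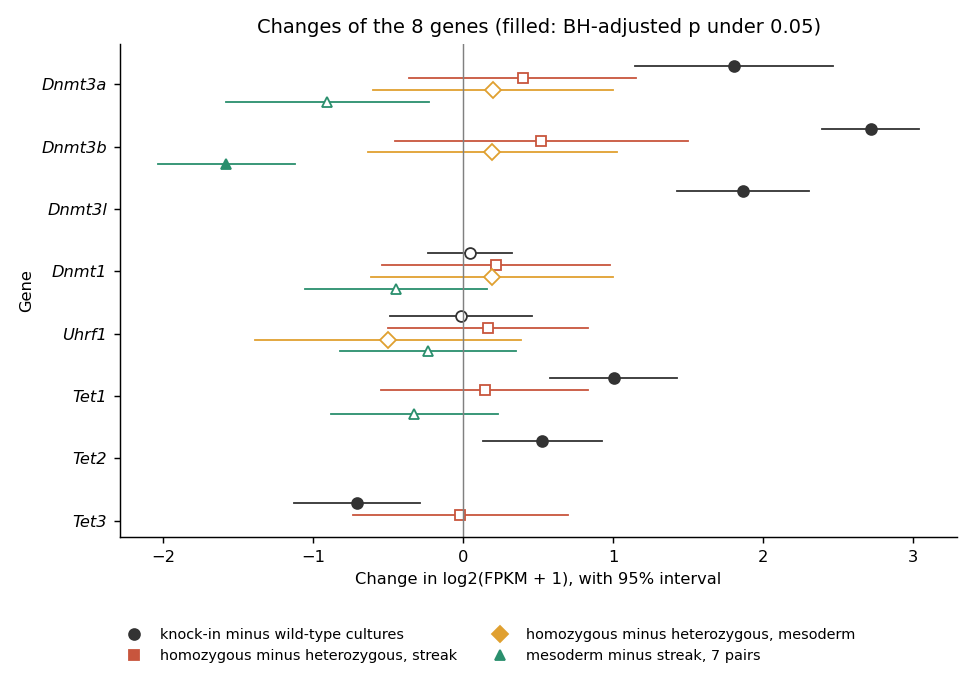
Change in log2(FPKM + 1) of each gene with its 95% interval in 4 comparisons: knock-in minus wild-type cultures (circles), homozygous minus heterozygous streak (squares) and mesoderm (diamonds), and mesoderm minus streak (triangles). Filled symbols passed a BH-adjusted p of 0.05, 6 genes in the cultures and Dnmt3b between regions, and genes under the filter have no symbol.

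The remaining intervals between genotypes were wide. In streak, the log2 change was 0.40 for Dnmt3a (95% interval -0.36 to 1.15), 0.22 for Dnmt1 (-0.54 to 0.98), 0.17 for Uhrf1 (-0.50 to 0.83), 0.14 for Tet1 (-0.54 to 0.83) and -0.02 for Tet3 (-0.73 to 0.70). The signs of Uhrf1 and Tet3 turned under other scalings or pseudocounts. In mesoderm it was 0.20 for Dnmt3a (-0.60 to 1.00), 0.19 for Dnmt1 (-0.61 to 1.00) and -0.50 for Uhrf1 (-1.38 to 0.39). Tet1 in mesoderm was under the filter and not tested, with means of 0.459 ± 0.28 FPKM in 3 heterozygous and 1.10 ± 0.47 FPKM in 5 homozygous sections, higher at 3 of 3 shared layers although the groups overlapped. The signs of Dnmt3a and Dnmt1 in mesoderm turned to -0.09 and -0.046 after median-ratio scaling. The difference of the genotype effect between regions passed for 0 of 5 members, 0 at an unadjusted p under 0.05, and for 0% of all genes (337 genes at an unadjusted p under 0.05 in limma). Epiblast markers summed to 56.8 to 291 FPKM in heterozygous and 224 to 545 FPKM in homozygous streak, and to 32.2 to 63.0 and 140 to 222 FPKM in mesoderm. Over both regions 4 of 9 epiblast markers and 4 of 8 streak markers were higher in homozygous sections, while T was lower. Their part in the values of the members was not tested.

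Dnmt3l was above 0 only in sections labelled homozygous: streak layers 7 and 9 (0.429 and 0.487 FPKM), the anterior epiblast (0.793 FPKM) and the section titled streak layer 3 (0.434 FPKM). It was listed at 0 in all 12 heterozygous sections and in the other 8 homozygous ones. It fell under the filter and was not tested, and the authors' deposited interval reached 0 for each value.

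Within the streak and mesoderm sections, Dnmt3b and Dnmt1 had r = 0.87 over 10 homozygous and r = 0.50 over 9 heterozygous sections, and Dnmt3b and Tet2 had r = -0.48 and -0.65. These are descriptions over sections that may share an embryo and that mix both regions. By the smaller of the 2 genotypes' correlations, the genes most like Dnmt3b among 2730 genes averaging 5 FPKM or more were Pim2 (0.85), Cse1l (0.81) and Prickle1 (0.80). For Dnmt1 they were Meg3, Mcm4 and Cuta (0.79 to 0.74), for Dnmt3a Ndufaf4, Dhrs4 and Idh3a (0.87 to 0.85), for Uhrf1 Acin1, Snrpd1 and Rpn2 (0.89 to 0.84) and for Tet1 Umps, Scd2 and Nde1 (0.87 to 0.85).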

How the data were processed

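Each library has a table of FPKM by gene, deposited by the authors in the column layout of Cufflinks with bounds for every value. CASAVA, TopHat2 2.0.11 and mm10 are named per the submitters' processing notes. The quantifier's version and the use of strand are not given in the sources used here. Gene positions are printed from the embryo tables, which follow mm10, since the culture tables use others.

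Groups came from the labels. Nothing says that replicates came from separate cultures or embryos, so p-values measure only the spread between these samples. Values of a repeated identifier were added, and values below 1e-06 set to 0. From the deposited FPKM, log2(FPKM + 1) was fitted with limma 3.58.1 in R 4.3.3. Genes had to average 1 FPKM or more, the prior followed the mean, tests were two-sided, and BH adjustment ran over all genes tested. Fold changes on this scale are understated for low genes. Layer entered as a number between genotypes, and genotype and layer formed the pair between regions. The 8 genes and the 16 lists beside them were chosen with earlier results of these data known. From each list, up to 2 called genes each way were named, largest change first, where the higher group had at least 5 FPKM. The fits were tested on simulated data with 100 genes given a planted log2 change. At a change of 1 they recovered 49 genes between cultures and 37 between regions. Between genotypes they recovered 9 in streak, 1 in mesoderm and 50 over both regions. At a change of 2 these counts were 88, 80, 59, 25 and 93. The genotype difference between regions gave 0 and 17. A member that did not pass between genotypes may therefore still have changed. Alternatives covered the pseudocount, filter, scaling, prior, block, conflicting sections and each library left out. The 4 posterior pieces were not analysed here.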

Additional observations from a re-analysis of the deposited data

Results flagged for a closer look

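Tet3 at streak layer 1 stood far above the other streak layers in both genotypes: 4.47 FPKM in the heterozygous section, where the next section read 1.27 FPKM, and 2.67 FPKM in the homozygous section, where the next read 0.781 FPKM. Tet2 in homozygous streak layer 1 stood apart in the same way, at 0.441 FPKM against 0.104 FPKM in the next section. The gap to the nearest section exceeded Dixon's 95% critical value in these 3 of 22 groups examined, and chance does so in about 1 in 20 groups. Without the layer 1 sections, Tet3 was at most 1.27 FPKM in streak.

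Several values outside the comparisons lay above the highest heterozygous streak or mesoderm section, which read 77.2 FPKM for Dnmt3b, 9.65 FPKM for Dnmt3a and 0 for Dnmt3l. Dnmt3b read 125.53 FPKM in the heterozygous anterior epiblast. The homozygous anterior epiblast read 148 FPKM for Dnmt3b, 16.1 FPKM for Dnmt3a and 0.793 FPKM for Dnmt3l. The section titled homozygous streak layer 3, whose cell type label names mesoderm, read 95.1 FPKM for Dnmt3b, 10.4 FPKM for Dnmt3a and 0.434 FPKM for Dnmt3l.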

How the results depend on the processing

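In the cultures Dnmt3a, Dnmt3b, Dnmt3l and Tet1 kept direction and call under every alternative run with a test, whereas the calls of Tet2 and Tet3 depended on the setting, as given above. Same-numbered cultures did not deviate together (correlations of -0.12, -0.053 and -0.051). With 3 cultures per group, that cannot show whether same-numbered cultures were handled together. With the replicate block 4 of the 8 genes passed in place of 6, and 3166 of all 13133 genes in place of 4256. Tet2 (limma adjusted p = 0.112) and Tet3 (limma adjusted p = 0.0576) did not pass with that block. Between mesoderm and streak, 2 genes passed with no block over all 19 sections and 0 with heterozygous pairs only, in place of 1. Over all genes, calls ranged with the setting from 20 to 1723 between regions, from 19 to 835 between genotypes over both regions and from 2693 to 4426 between cultures.

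The other changes of sign concern values that passed no test, and their cause was not tested. With FPKM rescaled without Yam1 and mitochondrial genes, log2 changes turned to -0.09 (Dnmt1, cultures), -0.0082 (Uhrf1, streak genotypes), -0.014, -0.037 and -0.13 (Dnmt1, Dnmt3a and Dnmt3b, mesoderm genotypes), 0.10 (Uhrf1, regions), 0.0016 and 0.0084 per layer (Dnmt1 and Dnmt3b) and -0.0063 (Dnmt1, genotype difference between regions). With median-ratio scaling they turned to -0.11 (Uhrf1, streak genotypes), -0.046, -0.09 and -0.16 (Dnmt1, Dnmt3a and Dnmt3b, mesoderm genotypes), 0.19 (Uhrf1, regions) and 0.0071 and 0.019 per layer (Dnmt1 and Dnmt3b). Tet3 between streak genotypes turned to 0.066 with a pseudocount of 0.1 and to 0.14 with the conflicting sections placed by cell type label. With layer as a replicate block the genotype difference between regions turned to -0.085 for Dnmt1 and -0.22 for Dnmt3b. The remaining settings were chosen after seeing the data. Without the layer 1 sections the slopes in streak turned to -0.065 (Dnmt1), -0.086 (Dnmt3b) and -0.0013 (Uhrf1) per layer. Without the sections high in visceral endoderm markers the slopes over all sections turned to 0.0085 (Dnmt1) and 0.027 (Dnmt3b). With heterozygous pairs only, Uhrf1 between regions turned to 0.080.

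Leaving out 1 library at a time changed the sign of these log2 values, none past the threshold. Between cultures, the range was Uhrf1 -0.18 to 0.14. Between genotypes in streak, the range was Dnmt1 -0.029 to 0.39, Tet1 -0.053 to 0.25, Tet3 -0.093 to 0.11 and Uhrf1 -0.015 to 0.30. Between genotypes in mesoderm, the range was Dnmt1 -0.17 to 0.36, Dnmt3a -0.062 to 0.45 and Dnmt3b -0.072 to 0.43. Between genotypes over both regions, the range was Uhrf1 -0.21 to 0.10. For the genotype difference between regions, the range was Dnmt1 -0.16 to 0.32, Dnmt3a -0.51 to 0.053 and Dnmt3b -0.40 to 0.61. Per layer over all sections, the range was Dnmt1 -0.025 to 0.018, Dnmt3b -0.087 to 0.026, Tet1 -0.037 to 0.00093 and Uhrf1 -0.0055 to 0.029. Per layer within streak, the range was Dnmt1 -0.013 to 0.065, Tet1 -0.044 to 0.019 and Uhrf1 -0.0051 to 0.039. Per layer within mesoderm, the range was Uhrf1 -0.052 to 0.0041. Depth is unknown, so no counting interval was computed for values of Tet2, Tet3 and Dnmt3l under 1 FPKM. Only the authors' deposited intervals are available for them.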
